A study of Mus musculus with 10 samples.

Results

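Expression of 10 genes of the microtubule cytoskeleton was followed across 5 cochlear cell types of the mouse: the alpha-tubulins Tuba1a, Tuba1b, Tuba1c, Tuba4a and Tuba8, the beta-tubulins Tubb3, Tubb5 and Tubb6, and the microtubule-associated proteins (MAPs) Map1b and Mapt. They were chosen by name, as members of these families, and all 10 were among the 34590 genes listed in the count files. Map1b is listed there under its older symbol Mtap1b. All 10 members passed the filter on low counts, which kept 16891 genes for testing.

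The RNA came from cells picked by hand under fluorescence after enzymatic dissociation of the cochlea, and it was amplified before sequencing. Bulk libraries were made from supporting cells (SCs (P26)), supporting cells converted towards hair cells (cHCs (P33)), outer hair cells at a young age (OHCs (P7)) and a mature one (OHCs (P22)), and inner hair cells (IHCs (P74)), with 2 libraries of each. SCs came from Fgfr3iCreER+ mice with a Cre-dependent tdTomato reporter, which marks Deiters' and pillar cells after tamoxifen, and the labels give ages of 27 days for library 12 and 26 days for library 11. cHCs carried these alleles together with the Cre-dependent Atoh1-HA transgene and an alpha9 AChR-EGFP reporter, and cells positive for both colours were picked at 33 days (libraries 13 and 16). Both SCs and cHCs had received tamoxifen at P12 and P13. OHCs (P7) are libraries 15 and 14, at 7 days. They are labelled as prestin-YFP knock-in cells, whereas the supplement of the study gives a prestin-driven inducible Cre with tdTomato, and tamoxifen in the first days after birth. OHCs (P22) carried the prestin-YFP knock-in, and their libraries are named by the labelled ages of 21 and 22 days. IHCs carried Pvalb-Cre and tdTomato, and their libraries are named by the ages of 74 and 75 days. Atoh1 is expressed from a transgene in cHCs, so these cells model a forced conversion and not a natural one.

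Microtubules are hollow polymers of dimers of alpha- and beta-tubulin. Each tubulin is encoded by a family of closely related genes, the isotypes, whose proteins differ most in their acidic tails at the carboxy end. Most alpha-tubulin tails end in a tyrosine that enzymes remove and put back, and structural MAPs and severing enzymes bind the tubulin tails or the lattice and set how long-lived a microtubule is. In the organ of Corti, pillar and Deiters' cells are known for their dense bundles of microtubules, which stiffen the epithelium, while hair cells hold most of theirs in the cell body, around the cuticular plate and, before maturity, in the kinocilium.

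The end of the coding sequence shows how alpha-tubulin members differ in that tail. The last 30 coding bases of Tuba1c, Tuba4a and Tuba8, 1 for each kind of end, are given 5′ to 3′ on the coding strand, in the mm9 build (NCBIM37) with the GENCODE M1 annotation, and the capitals mark the last sense codon and the stop codon. Each stretch lies within 1 exon.
Tuba1c: gaaggagacgatgagggtgaggaaTATTAA
Tuba4a: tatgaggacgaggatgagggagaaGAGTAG
Tuba8: gaagaagagaatgagggggaggaaTTTTAA
These stretches are at chr15:98868411-98868440 on the plus strand (Tuba1c), chr1:75212197-75212226 on the minus strand (Tuba4a) and chr6:121176068-121176097 on the plus strand (Tuba8). In Tuba1c the last sense codon, TAT, encodes tyrosine. In Tuba4a it is GAG, for glutamate, so this isotype has no encoded tyrosine at its end, and in Tuba8 it is TTT, for phenylalanine.

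The alpha-tubulin genes also differ in how well short reads can tell them apart. The coding sequences of Tuba1a and Tuba1b were identical at 98.3% of aligned positions, those of Tuba1a and Tuba1c at 97.1% and those of Tuba1b and Tuba1c at 97.9%. Of all stretches of 100 bases, the read length, 42.3% of those in the Tuba1a transcript, 52.3% in Tuba1b and 53.6% in Tuba1c also occur unchanged in a transcript of another of these 3 genes. Values of single Tuba1 genes are therefore uncertain where reads could be placed on a relative, and the sum of the 3 is given beside them. If shared reads were left uncounted, the sum would be too low as well, which was not tested. Tuba8 was identical to the other 4 at 78.8% to 80.8% of positions and Tuba4a to the other 4 at 80.8% to 85.2%, and no stretch of 100 bases of Tuba4a, Tuba8, Tubb3, Tubb5, Tubb6, Map1b or Mapt was found in the transcript of another protein-coding gene. Pseudogenes elsewhere in the genome were not searched. The other members, in the same build, lie at chr13:100191419-100286557 (Map1b, minus strand), chr11:104092704-104193404 (Mapt, plus strand), chr8:125935324-125945915 (Tubb3, plus strand) and chr17:35970871-35975251 (Tubb5, minus strand), and their counts are over the exons of each gene.

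Reads on genes numbered between 15016129 and 40518766 per library, so that 3 reads corresponded to between 0.074 and 0.2 CPM (counts scaled to the same library total). Floors and intervals take in counting error alone, because reads of amplified cDNA are not separate molecules. CPM below are scaled with the TMM factors of edgeR, and the lower or higher level of a gene in a library can reflect fewer cells of a type or less RNA per cell, which cannot be told apart in bulk RNA. The hair cell marker list summed to 364 and 365 CPM in SCs and to between 4545 and 7710 CPM in the other libraries. The IHC list (Slc17a8, Otof and Slc7a14) reached 8034 and 7227 CPM in IHCs. The SC list was highest in SCs, at 1675 and 2359 CPM, with 1276 and 882 CPM in cHCs and 1155 and 928 CPM in IHCs. Of its 10 genes, Fgfr3 (mean 445 against 239 CPM) and Prox1 (270 against 34.2 CPM) were higher in cHCs than in SCs. Gjb2 (540 against 259 CPM) and Slc1a3 (218 against 103 CPM) were higher in IHCs. The other means were lower than in SCs. cHC library 13 exceeded library 16 in every gene of the SC list except Prox1 (247 and 293 CPM). Among these were Sox9 (126 and 16 CPM), Gjb2 (83.4 and 1.73 CPM) and Slc1a3 (77.9 and 0.33 CPM). On 4 of the 10 sample records the attached file belonged to another library, and each file was assigned by the constant ratio of its counts to a library column of the study's CPM table. SCs, cHCs and OHCs (P7) have library numbers from 11 to 16, while the numbers of the OHC (P22) and IHC libraries are far higher. Cell type and number series cannot be told apart where a comparison spans both.

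Differences were tested with the quasi-likelihood test of edgeR in 1 model of all libraries, with Benjamini-Hochberg adjustment over all genes tested (FDR) and a threshold of 0.05. In the joint test for any difference among the 5 cell types, 3 of the 10 members passed, against 7.81% of all genes tested. These were Tuba8 (FDR = 0.00107), Map1b (FDR = 0.00753) and Tuba4a (FDR = 0.03). The 3 had quite different patterns: Tuba8 was high in the 3 kinds of native hair cells, Map1b in OHCs (P7), and Tuba4a in cHCs and SCs. The other 7 members had an FDR between 0.0921 and 0.739.

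**Figure D1:**
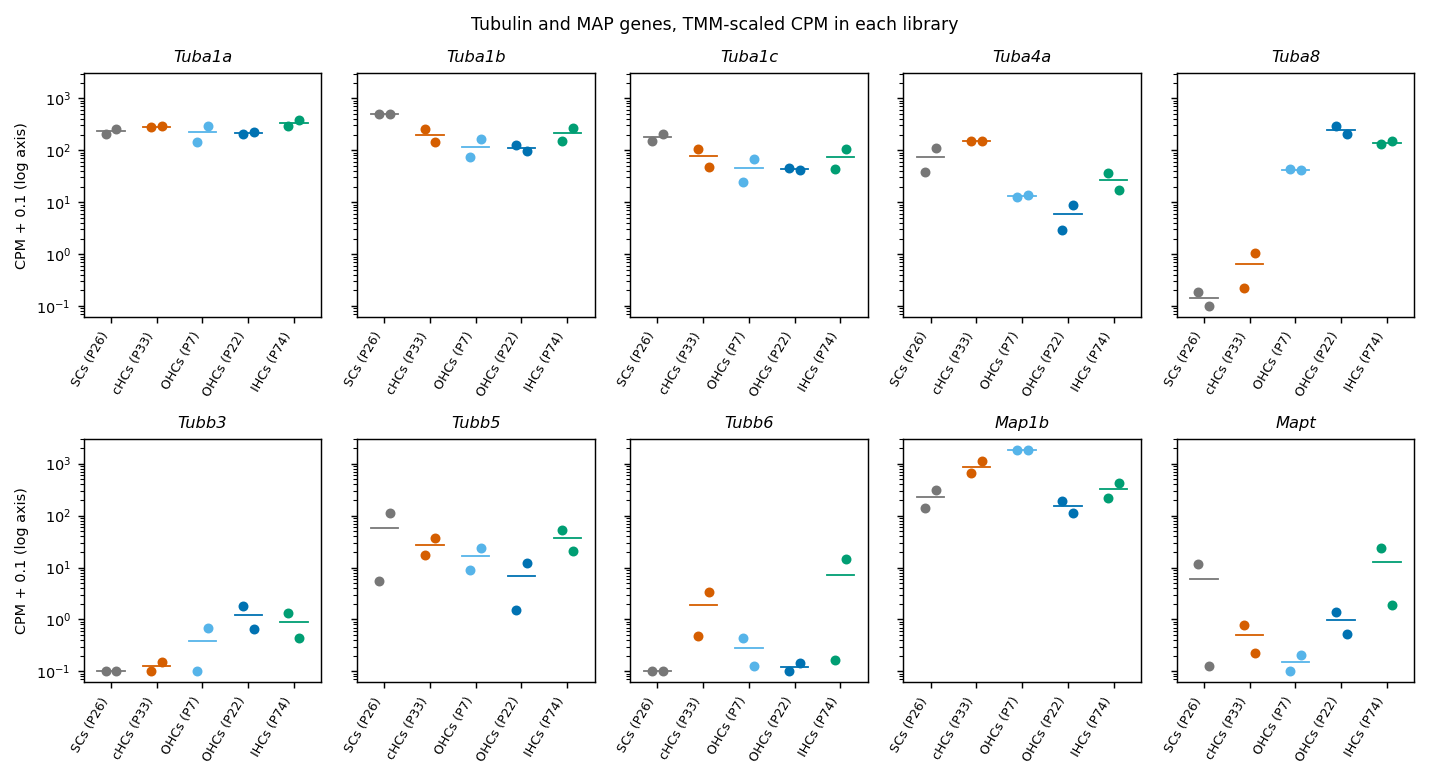
TMM-scaled CPM of the 10 members in each of the 10 libraries, on a log axis after adding 0.1 CPM. Each point is 1 library and each bar is the mean of 2; Tuba8 spans from 0 CPM in an SC library to 290 CPM in an OHC (P22) library, while Tuba1a stays between 147 and 378 CPM.

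Tuba8 encodes an alpha-tubulin with the divergent phenylalanine end shown above, and it is known as an isotype of restricted expression. It was counted with 2 reads in SC library 12 and 0 reads in SC library 11, which is at or below the floor of 3 reads in both. In cHCs it reached 0.128 CPM (3 reads) in library 13 and 0.94 CPM (37 reads) in library 16. OHCs (P7) held 42.8 and 41.7 CPM, OHCs (P22) 290 and 209 CPM, and IHCs 129 and 150 CPM. The libraries of the 3 native hair cell types thus all lay far above those of cHCs and SCs. The order was OHCs (P22), IHCs, OHCs (P7), cHCs and SCs, with no overlap between neighbours. Between cHCs and SCs this rested on 3 reads in cHC library 13 against 2 reads in SC library 12, within the floor.

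Against SCs, the log2 fold change of Tuba8 was 12.56 ± 1.49 (SE) in OHCs (P22), 11.72 ± 1.45 in IHCs and 10 ± 1.38 in OHCs (P7), with edgeR FDR of 0.000626, 0.00125 and 0.00262. Because the SC level rests on 2 reads, the fitted fold depends on the model's prior. The ratio of scaled reads was 7070 in OHCs (P22) against SCs, with a 95% counting interval from 1957 to 58392, and 1263 in OHCs (P7), with an interval from 349 to 10433. The lower ends of these intervals still mark a gene that was close to undetected in SCs and abundant in native hair cells.

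Tuba8 also separated native hair cells from cHCs. The log2 difference from cHCs was 8.82 ± 1.25 in OHCs (P22), 7.98 ± 1.2 in IHCs and 6.26 ± 1.12 in OHCs (P7), with edgeR FDR of 0.00572, 0.0127 and 0.0475. Between cHCs and SCs the log2 difference was 3.74 ± 1.21, which did not pass the threshold with edgeR (FDR = 0.192), and the ratio of reads was 19.1 with a counting interval from 4.96 to 163. It passed with DESeq2 (FDR = 0.0391), which called 10.4% of all genes in this comparison. It also passed without a filter on low counts (FDR = 0.0185), which called 4.07%, but not with limma-voom (FDR = 0.403). Of the 40 cHC reads, 37 came from library 16. Among the native hair cells, no difference passed with edgeR. OHCs (P22) exceeded OHCs (P7) by 2.56 ± 0.93 on the log2 scale (edgeR FDR = 0.272, unadjusted p = 0.0191), a difference that DESeq2 called (FDR = 0.0281). IHCs exceeded OHCs (P7) by 1.73 ± 0.91 (edgeR FDR = 0.449) and differed from OHCs (P22) by -0.83 ± 0.89 (FDR = 0.696). Tuba8 kept its calls against SCs and cHCs in OHCs (P22) and its calls against SCs in IHCs and OHCs (P7) whichever of the libraries compared was left out. The call of OHCs (P7) against SCs was lost when the other cell types were left out of the model (FDR = 0.0547). The calls of OHCs (P7) and IHCs against cHCs were not followed under other fits.

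Tuba8 accounted for a substantial share of alpha-tubulin RNA in mature hair cells. Levels of different genes were set side by side only as CPM per kb of exon. On that scale Tuba8 made up 37.9% and 31% of the summed RNA of 8 alpha-tubulin genes in OHCs (P22), next to Tuba1a with 35.6% and 44.1%. It made up 16.2% and 13.4% in IHCs and 11.6% and 5.76% in OHCs (P7). In cHCs its share was 0.0133% and 0.122%, and in SCs 0.00809% and 0%. The share is a ratio within a library and does not depend on the scaling between libraries. It can depend on how reads shared by Tuba1a, Tuba1b and Tuba1c were counted, which was not tested.

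Tuba1a, Tuba1b and Tuba1c encode the main alpha-tubulins of most cells. Together they summed to 869 and 952 CPM in SCs, 636 and 477 CPM in cHCs, 244 and 524 CPM in OHCs (P7), 371 and 356 CPM in OHCs (P22), and 493 and 758 CPM in IHCs. Both SC libraries lay above all others. As a share of alpha-tubulin RNA per length, the 3 genes made up 96.2% and 90.8% in SCs, 83% and 79% in cHCs, 84.7% and 92.1% in OHCs (P7), 61.6% and 67.6% in OHCs (P22), and 79% and 85% in IHCs.

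Within this group Tuba1b set SCs apart. It was counted at 509 and 492 CPM in SCs, 252 and 141 CPM in cHCs, 73 and 162 CPM in OHCs (P7), 125 and 94.6 CPM in OHCs (P22), and 151 and 273 CPM in IHCs. The SC libraries did not overlap with any other, and the other 4 cell types overlapped with each other in neighbouring order. The log2 difference of OHCs (P22) from SCs was -2.19 ± 0.58 (edgeR FDR = 0.0435). It lost the threshold when any 1 of the 4 libraries was left out, with FDR between 0.0843 and 0.119. In OHCs (P7) the difference was -2.09 ± 0.58 (FDR = 0.0843), in cHCs -1.35 ± 0.57 (FDR = 0.302) and in IHCs -1.24 ± 0.57 (FDR = 0.289). With limma-voom the differences of OHCs (P7) and cHCs from SCs passed, with FDR of 0.0296 and 0.0414. In these comparisons limma-voom called 6.94% and 6.31% of all genes. The difference of cHCs from SCs was not called by DESeq2 or without a filter on low counts. Nor was it called with at least 10 counts in every library or with only these cell types fitted. The joint edgeR FDR of Tuba1b was 0.0921.

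Tuba1c ran in the same direction at a lower level, with 153 and 201 CPM in SCs and between 24.2 and 107 CPM in the other 8 libraries. Its largest difference from SCs was that of OHCs (P22), at -2.04 ± 0.76 on the log2 scale, which did not pass (edgeR FDR = 0.126). Tuba1a, by contrast, was even across the cell types, with 207 and 260 CPM in SCs, 278 and 289 CPM in cHCs, 147 and 294 CPM in OHCs (P7), 201 and 220 CPM in OHCs (P22), and 299 and 378 CPM in IHCs. None of its 10 differences between pairs of cell types exceeded 0.68 ± 0.48 on the log2 scale, and its joint FDR was 0.739. In shares of alpha-tubulin RNA per length, Tuba1b was the first isotype in SCs, with 55% and 45.6% against 25.5% and 27.5% for Tuba1a, while in the other 8 libraries Tuba1b made up between 16.6% and 31.3%. The fibroblast marker list summed to 705 and 812 CPM in the SC libraries and to between 3.09 and 403 CPM elsewhere. In SCs nearly all of that was Lum, at 684 and 716 CPM, and Dcn, at 18.7 and 96.3 CPM, while the collagen genes of the list were at or below 1.29 CPM and Postn had 0 reads. The 403 CPM was in OHC (P7) library 15, with Col1a2 at 223 CPM and Col3a1 at 119 CPM. Both had 0 reads in OHC (P7) library 14. The part of these genes in the levels of the members was not tested.

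Tuba4a, the isotype without an encoded tyrosine, was highest in the cell types where Tuba8 was near 0. It was counted at 149 and 148 CPM in cHCs and at 38.1 and 109 CPM in SCs. IHCs held 35.8 and 16.8 CPM, OHCs (P7) 12.6 and 13.9 CPM, and OHCs (P22) 2.82 and 8.84 CPM. The order of cell types was cHCs, SCs, IHCs, OHCs (P7) and OHCs (P22), and no pair of neighbours overlapped or passed the test.

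In OHCs (P22) Tuba4a was lower than in cHCs, with a log2 difference of -4.67 ± 0.96 (edgeR FDR = 0.0251), and lower than in SCs, with a difference of -3.65 ± 0.92 (FDR = 0.0337). The difference from cHCs missed the threshold without cHC library 13, cHC library 16 or the 21-day OHC library, with FDR of 0.065, 0.0564 and 0.121, and with limma-voom (FDR = 0.0518). The difference from SCs missed it without SC library 11 or the 21-day OHC library, with FDR of 0.15 and 0.146, and with limma-voom (FDR = 0.0912). cHCs exceeded SCs by 1.02 ± 0.83 on the log2 scale (FDR = 0.61). As a share of alpha-tubulin RNA per length, Tuba4a made up 16.9% and 20.8% in cHCs, 3.76% and 9.23% in SCs, and between 0.401% and 4.85% in the 6 libraries of native hair cells. The share in cHCs was thus above that in every other library, as a description without a test.

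**Figure D2:**
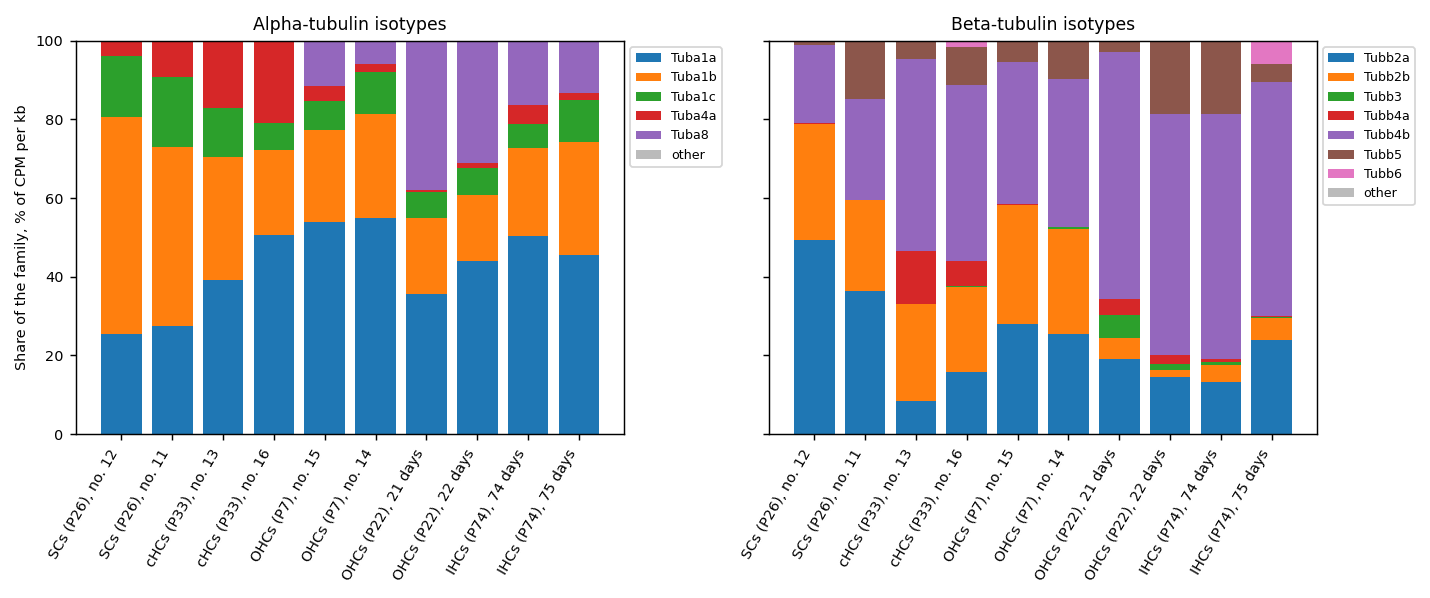
Share of each isotype in the summed alpha-tubulin (left) and beta-tubulin (right) RNA of each library, in % of CPM per kb of exon. Tuba8 fills 37.9% and 31% of the alpha column in OHCs (P22) and is not visible in SCs or cHCs, where Tuba4a is widest in cHCs.

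Of the beta-tubulin members, Tubb5 was the most abundant and varied widely between the libraries of a cell type. It was counted at 5.51 and 110 CPM in SCs, 17.1 and 36.8 CPM in cHCs, 8.73 and 24.1 CPM in OHCs (P7), 1.41 and 11.9 CPM in OHCs (P22), and 51.5 and 21 CPM in IHCs. All neighbouring cell types overlapped, and the joint FDR of edgeR was 0.523.

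Tubb3, a beta-tubulin used as a marker of neurons, reached at most 1.68 CPM in any library. It had 0 reads in both SC libraries, 0 and 2 reads in cHCs, 0 and 21 reads in OHCs (P7), 19 and 13 reads in OHCs (P22), and 37 and 10 reads in IHCs. Its level in OHCs (P22) was at least 18.3-fold higher and in IHCs at least 16-fold higher than the 3 reads over the SC group that a count of 0 allows. None of its differences passed the threshold, and its joint FDR was 0.324. Tubb6, another beta-tubulin, had 0 reads in SCs and rested on single libraries elsewhere: 129 of its 138 reads in cHCs came from library 16 and 420 of its 422 reads in IHCs from the 75-day library. Its joint FDR was 0.19.

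The 3 beta-tubulin members were the smaller part of beta-tubulin RNA per length, most of which was carried by Tubb2a, Tubb2b and Tubb4b. In the 22-day OHC library and the 74-day IHC library, Tubb5 made up 18.2% and 18.5%. That was above Tubb2a (14.4% and 13.3%) and Tubb2b (2% and 4.29%) in these libraries. Tubb4a made up 13.5% and 6.55% in cHCs and at most 3.93% elsewhere. Tubb4b made up 63% and 61.5% of beta-tubulin RNA per length in OHCs (P22), 62.5% and 59.5% in IHCs, 48.9% and 44.7% in cHCs, 36.1% and 37.6% in OHCs (P7), and 20% and 25.7% in SCs. In SCs the first isotype was Tubb2a, at 49.4% and 36.5%. Tubb2a and Tubb2b share 36.6% and 29.8% of their stretches of 100 bases with each other, so their split is uncertain.

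Summed beta-tubulin RNA was lowest in OHCs (P22). The 8 beta-tubulin genes summed to 15.1 and 19.7 CPM per kb there, compared with 51.4 and 74.4 in OHCs (P7), 83.7 and 138 in IHCs, 119 and 115 in cHCs, and 143 and 221 in SCs. The 8 alpha-tubulin genes summed to 343 and 303 CPM per kb in OHCs (P22), against 166 and 325 in OHCs (P7), 360 and 505 in IHCs, 430 and 347 in cHCs, and 493 and 575 in SCs. Alpha-tubulin RNA in OHCs (P22) was thus also below that in IHCs, cHCs and SCs, by a smaller factor than beta-tubulin RNA. The ratio of alpha to beta RNA per length was 22.7 and 15.4 in OHCs (P22) and between 2.6 and 4.37 in the other 8 libraries. This ratio is taken within each library and is given as a description. It can also depend on how reads shared between tubulin genes were counted, which was not tested. The 21-day library of OHCs (P22) had the lowest TMM factor, 0.5825 against 0.9298 to 1.199 in the others, and the share of reads outside genes was 61.8% and 59.6% in OHCs (P22) and 31.5% to 48.4% elsewhere. The part of these library properties in the low beta-tubulin RNA was not tested.

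**Figure D3:**
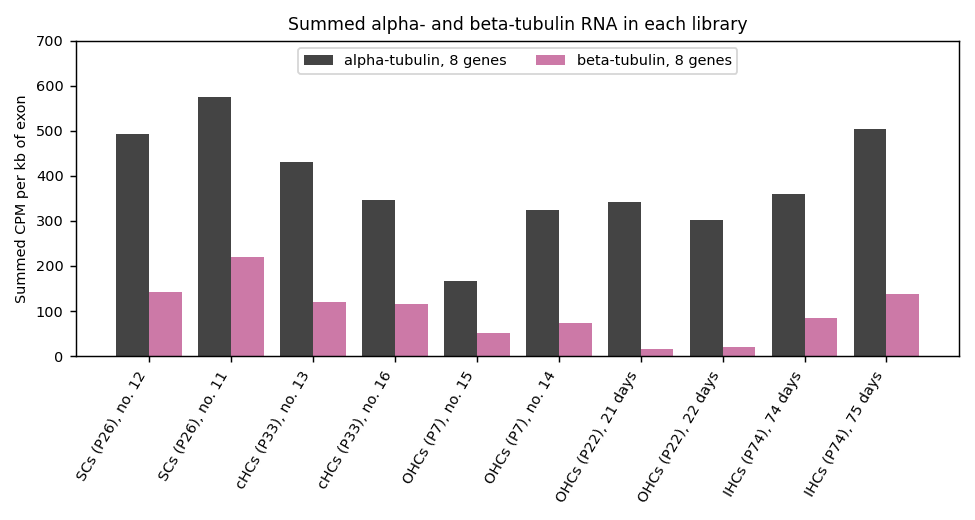
Summed CPM per kb of exon of 8 alpha-tubulin and 8 beta-tubulin genes in each library, from 0 on a linear axis. The beta bars of OHCs (P22) reach 15.1 and 19.7 while their alpha bars reach 343 and 303.

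Map1b encodes a large MAP known from growing axons, where it is most abundant before maturity. It was counted at 1792 and 1858 CPM in OHCs (P7), 645 and 1110 CPM in cHCs, 217 and 423 CPM in IHCs, 188 and 111 CPM in OHCs (P22), and 139 and 316 CPM in SCs. OHCs (P7) and then cHCs stood above the other 3 cell types without overlap, and IHCs, SCs and OHCs (P22) overlapped.

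The log2 difference of OHCs (P7) from SCs was 3.0 ± 0.57 (edgeR FDR = 0.016). Between the 2 ages of OHCs, Map1b was lower at P22, with a log2 difference of -3.61 ± 0.59 (FDR = 0.0335). It was the 1 member called in that comparison, in which 0.551% of all genes were called. The libraries of the 2 ages belong to different number series. OHCs (P22) were also below cHCs, with a difference of -2.55 ± 0.56 (FDR = 0.0341). cHCs exceeded SCs by 1.95 ± 0.55 on the log2 scale, which missed the threshold with edgeR (FDR = 0.127). The difference passed with limma-voom (FDR = 0.0278), DESeq2 (FDR = 0.0473) and no filter on low counts (FDR = 0.00542). These fits called 6.31%, 10.4% and 4.07% of all genes. With edgeR it missed the threshold at a minimum of 10 counts in every library (FDR = 0.0735). It also missed it with only these cell types fitted (FDR = 0.183). With 1 of their libraries left out, the log2 difference was between 1.47 (without SC library 12) and 2.66 (without SC library 11). OHCs (P7) exceeded cHCs by 1.06 ± 0.54 (FDR = 0.488), without overlap between the libraries and without passing the test.

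Single libraries decided several of these calls. The difference of OHCs (P7) from SCs had an FDR of 0.0658 without SC library 12, and that between the ages of OHCs had an FDR of 0.0793 without the 21-day library. The difference between OHCs (P22) and cHCs had an FDR of 0.0965 without cHC library 16, 0.0633 without the 21-day OHC library and 0.0896 without the 22-day OHC library. The neuron marker list, which holds genes that hair cells also use, summed to 2.35 and 0.877 CPM in SCs, 217 and 554 CPM in cHCs, 541 and 420 CPM in OHCs (P7), 404 and 288 CPM in OHCs (P22), and 617 and 852 CPM in IHCs. Of its 10 genes, Snap25, Nefm and Nefl carried most of the sum. Prph, which marks type II spiral ganglion neurons, had 0 reads in every library, and Gap43 stayed at or below 0.441 CPM. Other genes of the list were well above the floor. IHCs held 80.7 and 72.9 CPM of Nefh, 18.6 and 2.82 CPM of Stmn2, and 14.5 and 2.75 CPM of Elavl4. cHCs held 24.7 and 44.8 CPM of Rbfox3 and 0.17 and 30.3 CPM of Elavl4. Nefh, Stmn2, Elavl4 and Rbfox3 were at or below 0.133 CPM in SCs and 1.61 CPM in OHCs (P7). The part of the listed genes in the Map1b levels was not tested.

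Mapt, the gene for tau, a MAP of axons, was low and uneven. It was counted at 11.7 and 0.0266 CPM in SCs, 0.681 and 0.127 CPM in cHCs, 0 and 0.109 CPM in OHCs (P7), 1.32 and 0.421 CPM in OHCs (P22), and 23.4 and 1.79 CPM in IHCs. The SC level came from library 12 (263 of 264 reads) and most of the IHC level from the 74-day library (695 of 747 reads). The 74-day library also exceeded the other IHC library in Stmn2 (18.6 and 2.82 CPM) and Elavl4 (14.5 and 2.75 CPM). It was lower in Nefl, Snap25 and Rbfox3. The part of these neuron markers in the Mapt level was not tested. None of the Mapt differences passed, and the joint FDR of Mapt was 0.294.

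**Figure D4:**
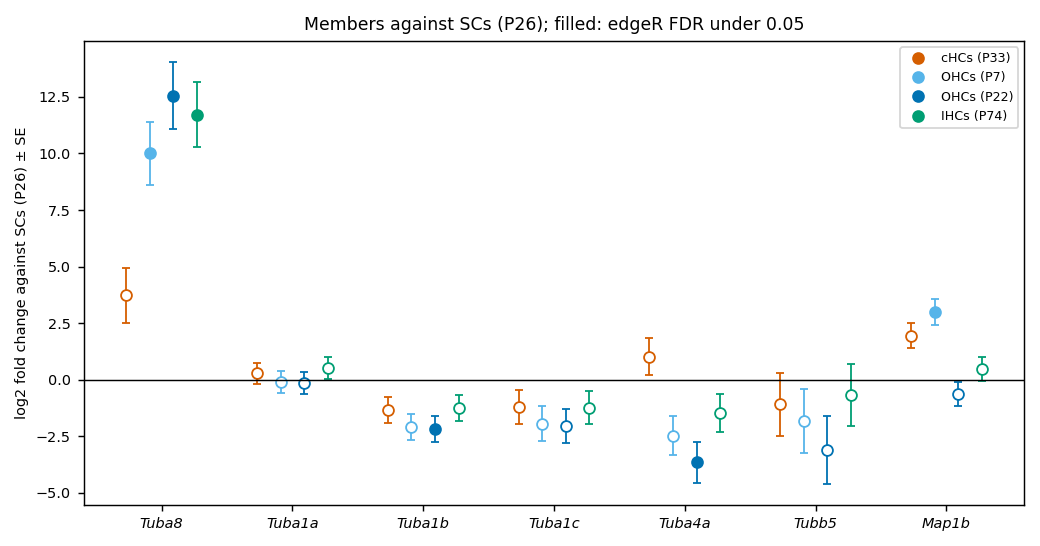
Log2 fold change against SCs (P26) with its SE for 7 members, leaving out Tubb3, Tubb6 and Mapt, in cHCs, IHCs and OHCs of both ages. Filled points have an edgeR FDR under 0.05: 3 for Tuba8, 1 each for Tuba1b, Tuba4a and Map1b.

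Counted by comparison, 0 of the 10 members differed between cHCs and SCs with edgeR, where 1.84% of all genes were called. Of the members, 4 had an unadjusted p under 0.05, and DESeq2 and limma-voom called 2 each. In OHCs (P7) against SCs 2 members were called, Tuba8 and Map1b, both higher, where 3.41% of all genes were called. In OHCs (P22) against SCs 3 were called, with Tuba8 higher and Tuba1b and Tuba4a lower, beside 8.02% of all genes. In IHCs against SCs 1 was called, Tuba8, beside 2.65% of all genes. Tuba8 was thus called against SCs in each native hair cell type. In OHCs (P22) against cHCs 3 were called, with Tuba8 higher and Map1b and Tuba4a lower, beside 3.18% of all genes. Between IHCs and OHCs (P22) 0 members were called by edgeR, DESeq2 or limma-voom, with 2 at an unadjusted p under 0.05 in edgeR, against 1.46% of all genes. In the comparisons of OHCs (P7) and of IHCs with cHCs, 1 member each was called, which was Tuba8, against 0.343% and 0.924% of all genes. In IHCs against OHCs (P7), where edgeR called 0.379% of all genes, 0 members were called, and Map1b had the lowest FDR among those named (0.105). The comparisons share SC, cHC or OHC libraries and are not independent of each other. The median log2 difference of the 10 members from SCs was 0.65 in cHCs, -0.95 in OHCs (P7), -1.32 in OHCs (P22) and 0.51 in IHCs, beside medians of 0.029, 0.00, 0.00 and 0.00 over all genes. With members at 0 reads in a group set to the bound that 3 reads allow, and those within the floor in both groups left out, it was 0.28, -1.81, -2.04 and 0.51.

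Other genes of the microtubule cytoskeleton were read from 7 lists with 99 genes, of which 92 passed the filter. In the joint test 9 of these 92 genes, or 9.78%, were called, close to the 7.81% of all genes. They were Tubb2a and Tubb2b (2 of 8 tested other tubulins), Map2 and Eml1 (2 of 18 structural MAPs), Fign and Stmn1 (2 of 10 stathmins and severing enzymes), Clasp1 and Nin (2 of 13 end-binding and anchoring proteins) and Kif5c (1 of 18 motors). Of the 18 tested tubulin-modifying enzymes, which include the tyrosine-adding Ttl and the tyrosine-removing Vash1 and Vash2, and of the 7 folding cofactors, 0 were called, with 2 and 1 at an unadjusted p under 0.05.

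**Figure D5:**
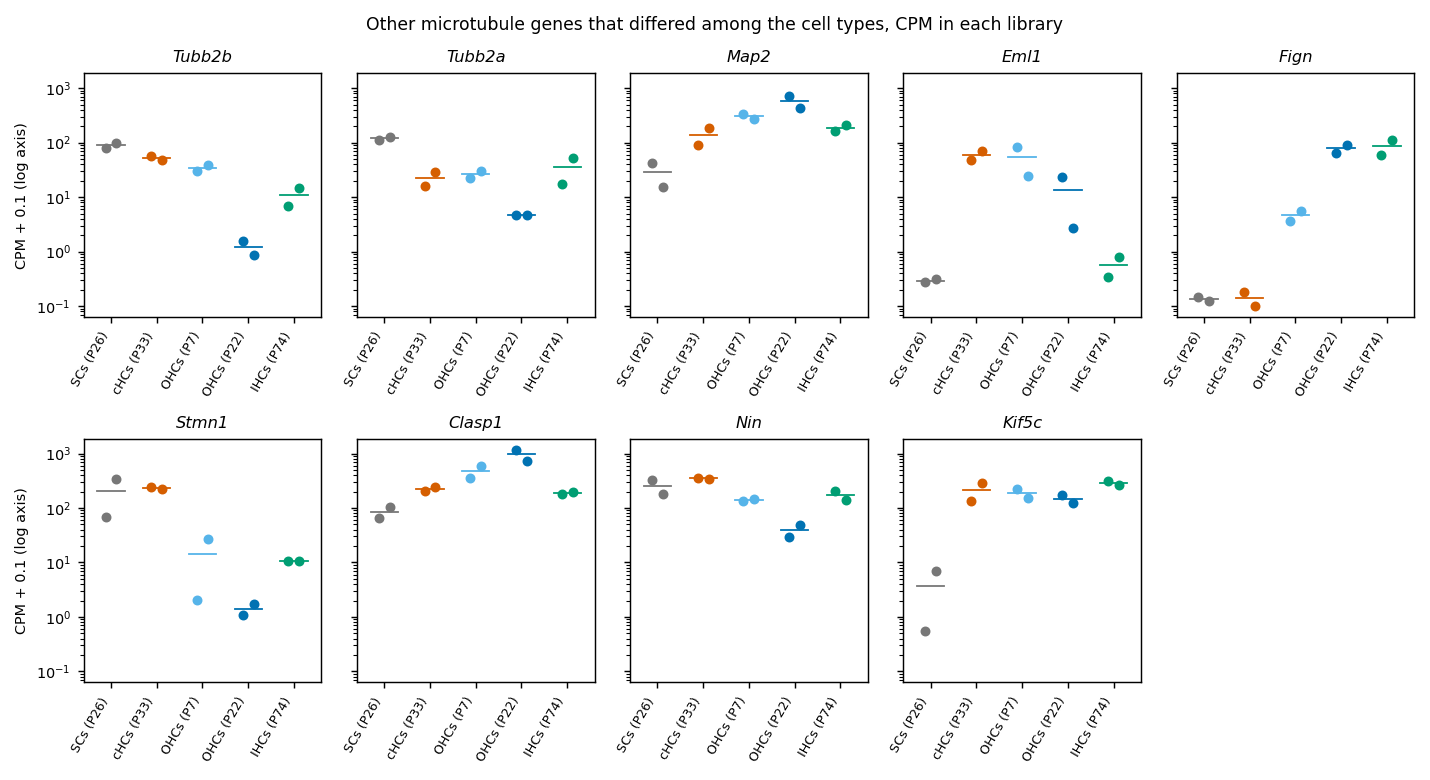
TMM-scaled CPM of the 9 other microtubule genes with a joint edgeR FDR under 0.05, in each of the 10 libraries, on a log axis after adding 0.1 CPM. Each point is 1 library and each bar the mean of 2; Fign is near 0 CPM in SCs and cHCs and between 59.7 and 112 CPM in OHCs (P22) and IHCs.

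Fign, a member of the fidgetin family of microtubule-severing ATPases, had levels that ran like those of Tuba8. It was counted at 0.0444 and 0.0266 CPM in SCs, 0.0851 and 0 CPM in cHCs, 3.56 and 5.51 CPM in OHCs (P7), 64 and 92.4 CPM in OHCs (P22), and 59.7 and 112 CPM in IHCs. The log2 difference from cHCs was 10.89 ± 1.56 in OHCs (P22) and 11.03 ± 1.57 in IHCs (edgeR FDR = 0.00584 and 0.00922). The cHC level rested on 2 reads, and the ratio of scaled reads of OHCs (P22) to cHCs was 2615, with a counting interval from 723 to 21605. Stmn1, which encodes the tubulin-sequestering stathmin, ran the other way, with 244 and 219 CPM in cHCs and 68.8 and 343 CPM in SCs. OHCs (P22) held 0.97 and 1.6 CPM. OHCs (P22) were below cHCs, with a log2 difference of -7.47 ± 1.35 (FDR = 0.0143).

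Map2, a structural MAP of dendrites, was counted at 41.4 and 15.5 CPM in SCs, 336 and 275 CPM in OHCs (P7) and 732 and 434 CPM in OHCs (P22), with log2 differences of 3.42 ± 0.65 and 4.36 ± 0.67 (edgeR FDR = 0.015 and 0.00296). Its order of the 2 OHC ages was thus the opposite of that of Map1b, although the Map2 difference between the ages was not called. Eml1, another structural MAP, and Kif5c, a kinesin heavy chain that carries cargo along microtubules, were the 2 listed genes called between cHCs and SCs, where 1.84% of all genes were called. Eml1 had 47.6 and 71.1 CPM in cHCs against 0.178 and 0.212 CPM in SCs (log2 difference = 8.21 ± 1.62, FDR = 0.0277). Its native levels were 84.1 and 24.5 CPM in OHCs (P7), 23.8 and 2.61 CPM in OHCs (P22), and 0.236 and 0.687 CPM in IHCs. Kif5c had 135 and 291 CPM in cHCs against 0.444 and 6.77 CPM in SCs (log2 difference = 5.87 ± 1.10, FDR = 0.0205), and was between 121 and 311 CPM in the native hair cells. In both genes the cHC and SC libraries did not overlap.

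In OHCs (P22) against SCs, 8 listed genes were higher and 7 lower, or 16.3% of those tested against 8.02% of all genes. With the other cell types left out of the model, 6 of 82 listed genes were called, beside 7.74% of all genes, so the share above the background was not kept. Clasp1, which stabilises growing microtubule ends, was among the higher ones, with 1179 and 743 CPM in OHCs (P22) against 64.9 and 105 CPM in SCs (log2 difference = 3.50 ± 0.51, edgeR FDR = 0.0022). Nin, the gene for ninein, which anchors microtubules at their minus ends, was among the lower ones, with 29.2 and 48 CPM against 332 and 182 CPM (difference = -2.73 ± 0.55, FDR = 0.0119). The beta-tubulins Tubb2b and Tubb2a were lower too, with differences of -6.31 ± 1.02 (FDR = 0.00386) and -4.72 ± 0.94 (FDR = 0.0113). Against cHCs, 6 listed genes were called in OHCs (P22), or 6.52% of those tested beside 3.18% of all genes, with Fign, Clasp1 and Ttll3 higher and Tubb2b, Stmn1 and Nin lower. Ttll3, a tubulin-modifying enzyme named here after its values were seen, had a log2 difference of 3.07 ± 0.72 (FDR = 0.0435).

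Over the 10 libraries, the genes whose log2 CPM ran most like that of Tuba8 were Gm4694 (Pearson r = 0.991), Gm20554 (r = 0.990) and Kcnma1 (r = 0.987), the gene for the BK potassium channel of hair cells. For Map1b they were Kit (r = 0.940), Crtam (r = 0.937) and Pcdhb12 (r = 0.936). For Tuba4a they were Naf1 (r = 0.963), Selm (r = 0.949) and 1810019D21Rik (r = 0.944). The 10 points of each are libraries that share cell types, depth and number series, so these values are a description of likeness over 5 cell types.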

How the data were processed

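The authors mapped paired-end reads of SPIA-amplified cDNA serially with STAR and BWA to mm9 after base calling with CASAVA 1.7, and counted them with HTSeq. The deposited values are raw counts per gene symbol, without normalization, and no reads are listed as not uniquely mapped. Nothing upstream was repeated. Each file was taken for the library whose CPM column in the study's supplementary table was a constant multiple of its counts, judged on 1728 to 1970 genes that had 10 counts or more. Its coefficient of variation was at most 0.000138% for that file and at least 170.1% for the next.

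Counts were fitted with edgeR 4.0.16 (TMM, filterByExpr by cell type, quasi-likelihood tests, 1 model of 10 libraries, common dispersion 1.12) in R 4.3.3, with 2-sided tests. The SE is the size of the log2 fold change divided by the square root of F. The study calls the libraries of a cell type biological duplicates, and p-values cover the spread between them. Exon lengths and positions are from GENCODE M1, sequences from its transcripts. Counting intervals are exact at 95%. Log2 CPM for likeness used a prior count of 2.

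Alternatives were DESeq2 1.42.0, limma-voom (limma 3.58.1), no filter, at least 10 counts in every library (7279 genes), a model of the compared cell types alone, the files in their attached order, and a fit without each library. The tests were checked on simulated data. The members, gene lists and tests were chosen with earlier results of these data known. The text names all members, up to 3 genes of each list with the smallest joint p among those under the FDR threshold, and the 3 genes most like each of 3 members. Named outside this rule are marker genes, the other tubulins of the isotype shares, Ttl, Vash1 and Vash2 as examples of their list, and Ttll3. Protein sequences were not used here. Tables were made in Python 3.11.15 with pandas 2.3.3, numpy 2.4.6 and scipy 1.17.1, plots with matplotlib 3.10.9.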

Additional observations from a re-analysis of the deposited data

How the results depend on the processing

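The alternatives were followed in each cell type against SCs, OHCs (P22) against cHCs, OHCs (P22) against OHCs (P7), and IHCs against OHCs (P22). No called difference of a member changed direction there. The Tuba8 calls of OHCs (P7) and of IHCs against cHCs were not followed under the alternatives. With the files as attached to the records, which mix cell types, 0 members were called in the joint test and in those comparisons followed. There, 0 listed genes were called in the joint test and the 3 comparisons recomputed for them. Tuba1b then made up 43.1% of alpha-tubulin RNA in the SC records and Tuba4a 6.47% in the cHC records. DESeq2 called 2 members in cHCs against SCs, 5 in OHCs (P7) against SCs, 2 in IHCs against SCs and 2 between the ages of OHCs, where it called 10.4%, 15.9%, 13.6% and 9.71% of all genes. limma-voom and no filter on low counts each called 2 members in cHCs against SCs, beside 6.31% and 4.07% of all genes. A minimum of 10 counts in every library left Tuba8 untested and 0 members called in IHCs against SCs, beside 4.73% of all genes. With the other cell types left out of the model, which left 7 to 9 members tested, 1 member was called in each of OHCs (P7) against SCs, OHCs (P22) against SCs and OHCs (P22) against cHCs (3.29%, 7.74% and 2.17% of all genes), and 0 between the ages of OHCs (0.174%).

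Leaving out 1 library gave 1 to 2 members in OHCs (P7) against SCs (fewest without SC library 12), 1 to 3 in OHCs (P22) against SCs (fewest without SC library 11 or the 21-day OHC library), 1 to 3 in OHCs (P22) against cHCs (fewest without cHC library 16 or the 21-day OHC library), and 0 to 1 between the ages of OHCs (0 without the 21-day library).

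Of the 92 listed genes tested, the joint test called 32 with DESeq2 and 16 with limma-voom, beside 26% and 13.5% of all genes, and 29 of the 97 tested without a filter, beside 17.4%. In cHCs against SCs the numbers were 12, 8 and 6 (10.4%, 6.31% and 4.07% of all genes), and 1 of 82 when only these cell types were fitted (1.38%). In OHCs (P22) against SCs DESeq2 called 27 (24.6% of all genes) and the fit of these cell types 6 of 82 (7.74%). In OHCs (P22) against cHCs DESeq2 called 18 (16.1%), no filter 10 of 97 (6.79%) and the fit of these cell types 3 of 85 (2.17%). Without single libraries, these 3 comparisons gave 1 to 2, 8 to 14 and 3 to 8, with the fewest without SC library 11 in the first and without the 21-day OHC library in the others.

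Small differences that no fit called changed sign. With DESeq2, OHCs (P22) exceeded OHCs (P7) by 0.084 on the log2 scale in Tuba1b, 0.074 in Tuba1c and 0.094 in Tuba1a, and with only these cells fitted by 0.009 in Tuba1a. With the files as attached, the log2 difference of cHCs from SCs was -0.63 in Tuba4a and -0.25 in Tuba1a, that of IHCs from SCs -0.29 in Map1b, that of OHCs (P7) from SCs 0.26 in Tuba1a and that of OHCs (P22) from cHCs 0.05 in Tuba1a. Leaving out 1 library gave log2 differences between the ages of OHCs from -0.58 to 0.61 in Tuba1b, -0.67 to 0.86 in Tuba1c and -0.49 to 0.55 in Tuba1a, with the highest of each without OHC (P7) library 14. The values were also above 0 without the 22-day library in Tuba1b (0.078) and without the 21-day library in Tuba1a (0.0044). From SCs, Tuba1a differed by -0.73 to 0.33 in OHCs (P7), above 0 without SC library 11 (0.09) or OHC library 15 (0.33), and by -0.31 to 0.017 in OHCs (P22), while Map1b differed by -1.1 to 0.1 in OHCs (P22), the highest of both without SC library 11, and by -0.069 to 1.2 in IHCs, the lowest without the 75-day library.

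Without division by exon length, Tuba8 made up 40% of alpha-tubulin RNA in OHCs (P22). The cause of these changes was not tested. DESeq2 scaling moved the median of all genes by over 0.1 only between the ages of OHCs (0.14) and between IHCs and OHCs (P22) (-0.11), among 7 comparisons. No paired analysis was possible because the cell types share no replicate numbers. At this depth, members with at most 3 reads in a group have no fold beyond the ratios and bounds given.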
